A study of Homo sapiens with 8 samples.

Results

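The genes described here are 6 members of the DNA mismatch repair pathway, MSH6, MSH3, PMS2, PMS1, MLH3 and EXO1. They were taken by their symbols from the gene column of the count tables of both cell lines, which list the same 58828 genes. All 6 passed the filter on low counts and were among the 19784 genes tested. The RNA of 8 cultures was sequenced, 1 library for each combination of cell line, construct and treatment. The lines were 22RV1 and DU145, both derived from human prostate cancers. Each line carried a lentiviral, doxycycline-inducible vector that was either empty (Vector) or held PAGE4, a cancer/testis antigen of the GAGE family. All transduced cells were selected with puromycin and given doxycycline, so the controls shared both agents. Cells then received PBS or H2O2, at 200 mM by the labels, 12 h before collection. The study asked how PAGE4 acts on prostate cancer cells under oxidative stress, and H2O2 is also a source of oxidised bases in DNA.

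Mismatch repair removes wrongly paired bases and small loops that DNA polymerases leave behind, and a loss of it makes simple repeats unstable. MutS dimers bind the mismatch: a dimer with MSH6 takes up single-base mismatches and small loops, and a dimer with MSH3 takes up larger loops. MutL dimers with PMS2, PMS1 or MLH3 are then recruited, PMS2 cuts the new strand, and the exonuclease EXO1 degrades it past the error so that DNA polymerase delta, PCNA, RPA and DNA ligase 1 can fill and seal the gap. DU145 cells have been described as defective in mismatch repair, a property that RNA counts do not measure. Repair status was not tested in either line. A contrast of the lines should therefore not be read as one of proficient against defective cells.

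The promoters of these genes are shown because a number of replication and repair genes are regulated by E2F factors through short octamer sites. The windows ran from 250 bases before to 50 bases after each start site in RefSeq (GRCh38.p14), and 6 of 6 members matched. The letters TTTGGCGC, TTTCGCGC, TTTCCCGC and TTTGCCGC were searched on both strands. At least 1 of them was present in 4 of the 6 windows, and in 3.3% of 35116 promoter windows of the same length. Other motifs were searched in the same way: CCAAT was present in 3 of the 6 windows against 34.6% of all windows, the GC box GGGCGG in 5 against 45.0%, and the antioxidant response element core TGACNNNGC in 2 against 13.3%. The octamers are in capitals in the 30 bases below, written 5′ to 3′ on the strand of the gene:
MSH6: ctccccccagaTTTCCCGCcagcaggagcc
MSH3: gcggtcaagTTTGGCGCGAAAttgtggccg
PMS2: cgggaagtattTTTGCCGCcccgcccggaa
EXO1: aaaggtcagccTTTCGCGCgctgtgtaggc
The MSH6 stretch lies at chr2:47783137-47783166 on the plus strand, with its octamer starting at base 4 of the transcript, and the EXO1 stretch at chr1:241848197-241848226 on the plus strand, with its octamer starting at base 5. The MSH3 stretch lies at chr5:80654536-80654565 on the plus strand, with its octamer starting at -107 and a second octamer on the other strand overlapping it, so that the capitals there span both. The PMS2 stretch lies at chr7:6009131-6009160 on the minus strand, with its octamer starting at -100. The PMS1 and MLH3 windows held none of these letters. A match is a description of the sequence and not a measured binding site.

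Library totals ran from 25482984 to 43310401 counts. PAGE4 itself had 0 or 1 count in the 4 Vector libraries and 1001 to 1489 counts in the 4 PAGE4 libraries. The 22RV1 markers KLK3, KLK2 and HOXB13 summed to 87.6 to 310.3 CPM (counts scaled to a common library size) in 22RV1 and to 0.0803 to 0.219 CPM in DU145, and a list of 5 DU145 markers (CD44, VIM, LGALS1, S100A2 and CAV1) summed to 675 to 834 CPM in DU145 and to 213.5 to 326 CPM in 22RV1. Of the latter list, LGALS1 was higher in 22RV1 (log2 0.49, edgeR's quasi-likelihood test, adjusted p = 0.00361) and CD44 did not pass (0.21, adjusted p = 0.0700). With 1 library per condition, p-values below rest on how far an effect differed between pairs of libraries, not between replicate cultures. The quasi-likelihood fit also draws each gene's spread towards that of other genes, so a p-value does not rest on that gene's pairs alone. PAGE4 cannot be told apart from any other difference between the Vector and PAGE4 cells of a line. Likewise, a difference between 22RV1 and DU145 cannot be told apart from anything else that differed between the libraries or count tables of the lines. In bulk RNA, fewer cells of a kind and less RNA per cell cannot be told apart either.

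Per kilobase of the canonical transcript, MSH6 and EXO1 were the most abundant members and MSH3 the least. In 22RV1 the levels were 18.2 ± 5.27 CPM per kb for MSH6, 15.1 ± 1.42 for EXO1, 8.93 ± 0.662 for PMS2, 7.36 ± 1.73 for PMS1, 3.07 ± 0.162 for MLH3 and 1.26 ± 0.292 for MSH3 (mean ± SD, n = 4 libraries of different conditions). In DU145 they were 36.8 ± 1.30 for MSH6, 22.3 ± 3.91 for EXO1, 7.78 ± 0.922 for PMS2, 7.70 ± 1.32 for PMS1, 4.41 ± 0.584 for MLH3 and 3.41 ± 0.222 for MSH3. The ranges of MSH6 and EXO1 overlapped in 22RV1 but not in DU145. Those of PMS2 and PMS1 overlapped in both lines, and all other neighbours in the order were separate in both by canonical length. The length matters for MSH6, whose gene model in GENCODE 44 (chr2:47695530-47810063, plus strand) holds 17722 exonic bases in all against 4265 in the canonical transcript. Per kilobase of all exonic bases, MSH6 was at 3.21 to 9.20 CPM and EXO1 at 10.9 to 22.9 CPM over the 8 libraries, so the order of this pair depends on the length used. Other positions changed too on that scale: MSH6 (3.21 and 3.42 CPM per kb) lay below PMS2 (3.80 and 4.47) in the 22RV1 H2O2 libraries, and in DU145 the ranges of MLH3 (3.59 to 4.70), PMS1 (3.64 to 5.29) and PMS2 (2.95 to 3.95) overlapped, as did those of PMS2 and MSH3 (2.72 to 3.11).

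**Figure D1:**
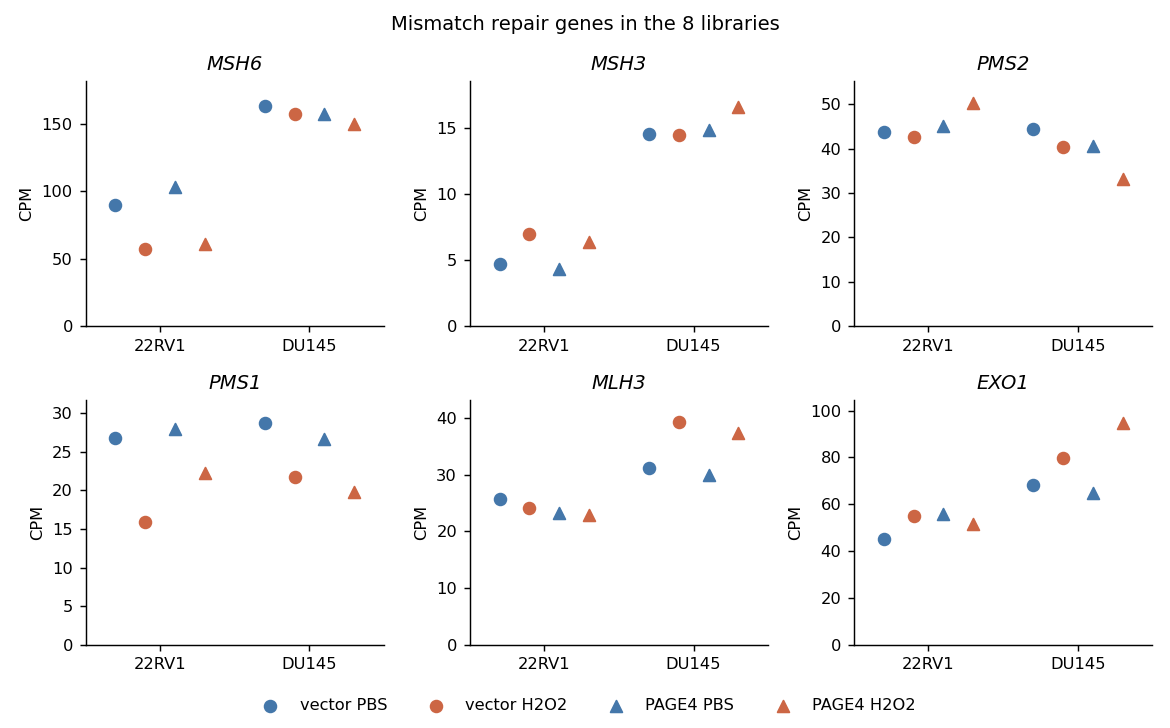
Each panel plots 1 mismatch repair gene, with CPM on a vertical axis from 0 and the 8 libraries grouped by line; circles are Vector, triangles PAGE4, blue PBS and red H2O2, 1 library per point. MSH6 and MSH3 lie lower in all 4 22RV1 libraries than in any DU145 library, and the red points of MSH6 lie below the blue ones in 22RV1, from 56.9 to 60.6 against 89.8 to 103 CPM.

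The lines differed in 4 members, MSH6, MSH3, MLH3 and EXO1, and all 4 were lower in 22RV1. By edgeR's quasi-likelihood test with Benjamini-Hochberg adjustment, on the 4 pairs matched for construct and treatment, 63.2% of the genes tested differed between the lines, against 4 of the 6 members, so the count itself sits near the background. The median log2 difference was -0.53 over the members and 0.07 over all genes tested. MSH3 showed the largest difference among the members, 2.74-fold lower in 22RV1 (log2 -1.46 ± 0.18 SE, adjusted p = 0.000289), and MSH6 was 2.09-fold lower (-1.06 ± 0.15, adjusted p = 0.000574). FBXO11, which shares exonic bases with MSH6 on the opposite strand, was also lower in 22RV1 (-1.91 ± 0.15, same test, adjusted p = 2.68e-05). How far its reads entered the MSH6 counts was not tested. EXO1 was lower by -0.55 ± 0.13 (adjusted p = 0.00571) and MLH3 by -0.51 ± 0.13 (adjusted p = 0.00981) on the same log2 scale. PMS2 (0.20 ± 0.13, adjusted p = 0.213) and PMS1 (-0.08 ± 0.14, adjusted p = 0.641) did not pass. With scaling by total counts, which moved the median of all genes from 0.07 to 0.27, MLH3 no longer passed (-0.31, adjusted p = 0.0602) and PMS2 did (0.40, adjusted p = 0.0307).

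MSH6, the mismatch-recognition subunit, fell with H2O2 in 22RV1 and did not pass in DU145. In 22RV1 it was at 89.8 CPM with Vector and PBS, 56.9 with Vector and H2O2, 103 with PAGE4 and PBS and 60.6 with PAGE4 and H2O2. In DU145, in the same order, it was at 163, 157.5, 157.6 and 149.6 CPM. Both 22RV1 H2O2 libraries were lower than both 22RV1 PBS libraries, and all 4 were lower than any DU145 library. With H2O2, MSH6 was 1.64-fold lower in 22RV1 (log2 -0.71 ± 0.08 SE, edgeR's quasi-likelihood test with Benjamini-Hochberg adjustment, adjusted p = 2.03e-06) and differed by -0.06 ± 0.08 in DU145 (adjusted p = 0.586). Effects within a line, here and below, rest on 2 pairs, with the spread shared with the other line.

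The difference between those effects was itself tested. It was -0.65 ± 0.12 on the log2 scale (22RV1 minus DU145, adjusted p = 0.000506 by edgeR's quasi-likelihood test), and MSH6 was the 1 member of 6 to pass, against 19.5% of all genes tested. Each of the 8 other settings kept that call, with adjusted p between 3.54e-07 and 0.0102. Over both lines together the log2 effect of -0.39 ± 0.14 did not pass (adjusted p = 0.0886), although it did without the count filter (0.00976). A list of 14 S-phase genes was read beside MSH6 (MCM2 to MCM7, CDC6, CDT1, CCNE1, CCNE2, E2F1, RRM1, RRM2 and TYMS). Its summed level in 22RV1 was 2684 and 2929 CPM with PBS and 1869 and 1863 CPM with H2O2. There 13 of its 14 genes fell and none rose, where 32.1% of all genes passed. In DU145 the list summed to 2825 to 3022 CPM, with 3 genes rising and 4 falling, where 41.9% of all genes passed. The H2O2 effect on 6 of the 14 was more negative in 22RV1 than in DU145, and on 0 more positive, against 19.5% of all genes tested. The part of cell cycle position in the MSH6 result was not tested. FBXO11, on the opposite strand, shares 4022 exonic bases with MSH6. Its level ran from 8.69 to 14.6 CPM in 22RV1 and from 43.3 to 46.6 CPM in DU145, and its H2O2 effect in 22RV1 was 0.30 ± 0.13 (adjusted p = 0.0860), opposite in sign to that of MSH6. The strand setting of the counting is not given in the sources used here, so reads in the shared bases cannot be assigned to either gene.

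MSH3 (chr5:80654652-80876815, plus strand), the subunit for larger loops, was the rarest member per canonical length and moved the opposite way to MSH6 in 22RV1. Its levels there were 4.73 CPM (211 counts) with Vector and PBS, 7.01 CPM (270 counts) with Vector and H2O2, 4.31 CPM (173 counts) with PAGE4 and PBS and 6.40 CPM (181 counts) with PAGE4 and H2O2. In DU145 they were 14.6, 14.5, 14.8 and 16.6 CPM in that order. The H2O2 libraries of 22RV1 were above its PBS libraries, and in DU145 only PAGE4 with H2O2 stood above the rest. MSH3 rose with H2O2 in 22RV1 by 0.57 ± 0.18 on the log2 scale (edgeR's quasi-likelihood test, adjusted p = 0.0211) and differed by 0.08 ± 0.17 in DU145 (adjusted p = 0.760). The difference between the lines, 0.49 ± 0.25, did not pass (adjusted p = 0.183). The rise in 22RV1 did not pass with the DESeq2 Wald test (adjusted p = 0.0627), without the count filter (0.0565), or without the Vector pair (0.106) or the PAGE4 pair (0.0672) of that line.

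The ratio of MSH6 to MSH3, per length, therefore varied most in 22RV1. It was 19.8 with Vector and PBS and 24.9 with PAGE4 and PBS, and 8.45 and 9.85 in the matching H2O2 libraries. In DU145 it was 11.6 with Vector and PBS, 11.1 with PAGE4 and PBS, and 11.3 and 9.39 with H2O2. The H2O2 libraries of 22RV1 thus lay near or within the DU145 range, and its PBS libraries above it. Per length of all exonic bases the ratio was 5.71 and 7.19 with PBS and 2.44 and 2.84 with H2O2 in 22RV1, and 2.71 to 3.36 in DU145, so its size depends on the length used. No test was made of the ratio.

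**Figure D2:**
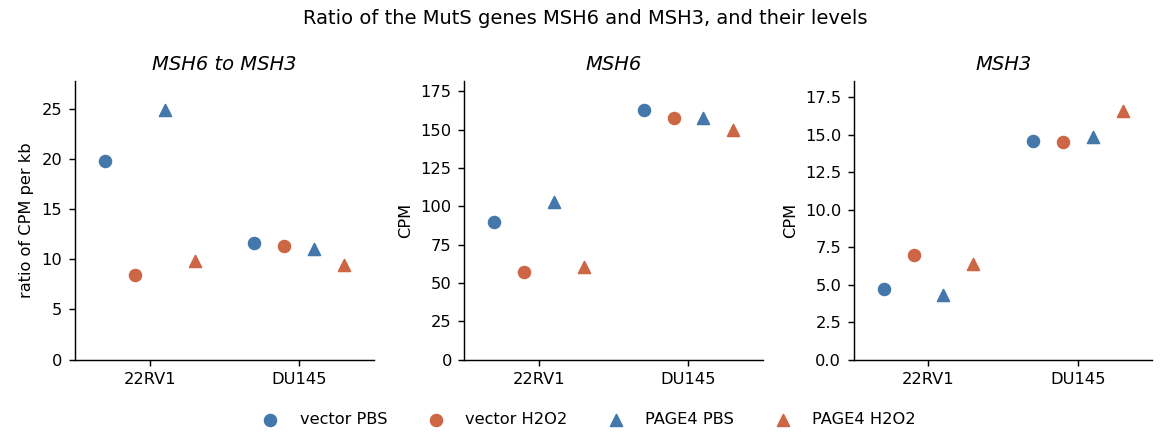
The left panel plots the ratio of MSH6 to MSH3 in CPM per kb, and the other panels the CPM of MSH6 and of MSH3, each axis starting at 0, with 1 point per library (circles Vector, triangles PAGE4, blue PBS, red H2O2). The ratio was 19.8 and 24.9 with PBS and 8.45 and 9.85 with H2O2 in 22RV1, where MSH6 was lower and MSH3 higher with H2O2.

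PMS1, a MutL partner of uncertain function in repair, fell in both lines. It was at 26.8 and 28.0 CPM with PBS (Vector and PAGE4) and at 15.9 and 22.3 CPM with H2O2 in 22RV1, and at 28.8 and 26.7 CPM with PBS and 21.8 and 19.8 CPM with H2O2 in DU145. All 4 H2O2 libraries were below all 4 PBS libraries, across both lines. The fall was -0.54 ± 0.13 on the log2 scale in 22RV1 (adjusted p = 0.00377), -0.42 ± 0.14 in DU145 (adjusted p = 0.0180) and -0.48 ± 0.12 over the 4 pairs (adjusted p = 0.0275), all by edgeR's quasi-likelihood test with Benjamini-Hochberg adjustment. PMS1 was the 1 member of 6 called over the 4 pairs, against 23% of all genes tested. An unadjusted p under 0.05 was found for 2 of the 6 (PMS1 and MSH6) and for 7415 of the 19784 genes tested. The joint call was lost with scaling by total counts (-0.39, adjusted p = 0.0510) and without any 1 of the 4 pairs (adjusted p from 0.0535 to 0.121), and the call in 22RV1 without the Vector pair (-0.34, adjusted p = 0.143). The call in DU145 was lost with the DESeq2 Wald test (-0.39, adjusted p = 0.0701) and without the Vector pair (0.143) or the PAGE4 pair (0.172) of that line. The difference between the lines was -0.13 ± 0.19 (adjusted p = 0.710).

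PMS2, the MutL endonuclease, did not pass in any H2O2 comparison. Its levels were 43.7, 42.7, 45.2 and 50.3 CPM in 22RV1, in the order Vector with PBS, Vector with H2O2, PAGE4 with PBS and PAGE4 with H2O2, and 44.4, 40.3, 40.7 and 33.2 CPM in DU145. The ranges of the lines overlapped, and the highest and the lowest libraries were those of PAGE4 with H2O2, in 22RV1 and in DU145. The H2O2 effect was 0.06 ± 0.11 in 22RV1 (adjusted p = 0.718) and -0.22 ± 0.11 in DU145 (adjusted p = 0.119) by edgeR's quasi-likelihood test. PMS2 values are uncertain, since the gene has near-copies to which reads can be assigned: 11 were listed, and together they had 1.12 to 2.32 counts for each PMS2 count. The pseudogene PMS2CL rose in each line, from 14.9 and 15.04 to 22.4 and 26.3 CPM in 22RV1 and from 27.8 and 28.0 to 44.7 and 46.2 CPM in DU145 (log2 0.70 ± 0.10 over the 4 pairs, adjusted p = 0.00524). Its counts were 0.330 to 0.344 of those of PMS2 with PBS and 0.446 to 0.616 with H2O2 in 22RV1, and 0.632 to 0.684 and 1.15 to 1.35 in DU145. Of the other near-copies tested, PMS2P3 also rose over the 4 pairs (log2 0.68 ± 0.16, edgeR's quasi-likelihood test, adjusted p = 0.0243). PMS2P1 (-0.20 ± 0.13, adjusted p = 0.303), PMS2P2, PMS2P4, PMS2P5 and PMS2P7 did not pass.

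MLH3, the MutL subunit best known from meiotic crossing over, rose with H2O2 in DU145. It was at 31.1 and 30.02 CPM with PBS and 39.3 and 37.4 CPM with H2O2 in DU145 (Vector and PAGE4), and at 25.7 and 23.3 CPM with PBS and 24.1 and 22.9 CPM with H2O2 in 22RV1. The DU145 H2O2 libraries were above all others, and the 22RV1 libraries spanned 22.9 to 25.7 CPM. The effect was 0.33 ± 0.12 on the log2 scale in DU145 (edgeR's quasi-likelihood test, adjusted p = 0.0299) and -0.06 ± 0.12 in 22RV1 (adjusted p = 0.749), with a difference between the lines of -0.39 ± 0.17 (adjusted p = 0.112). The call in DU145 did not pass with the DESeq2 Wald test (adjusted p = 0.0509) or without either DU145 pair (0.217 and 0.246).

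EXO1, the exonuclease, was highest in DU145 with PAGE4 and H2O2. Its levels in DU145 were 68.3, 79.9, 64.6 and 94.5 CPM for Vector with PBS, Vector with H2O2, PAGE4 with PBS and PAGE4 with H2O2, and in 22RV1 45.3, 55.2, 56.0 and 51.7 CPM in the same order. In DU145 both H2O2 libraries were above both PBS libraries. In 22RV1 they lay within the range of the PBS libraries. EXO1 rose in DU145 by 0.39 ± 0.11 on the log2 scale (edgeR's quasi-likelihood test, adjusted p = 0.00658), and the 22RV1 effect was 0.09 ± 0.11 (adjusted p = 0.594). Without the DU145 PAGE4 pair the effect there was 0.23 (adjusted p = 0.334). The difference between the lines of -0.30 ± 0.15 did not pass (adjusted p = 0.184), but it did without the 22RV1 Vector pair (-0.56, adjusted p = 0.00451).

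Within the lines, 3 of the 6 members passed in 22RV1, where 32.1% of the genes tested did, and 3 of the 6 passed in DU145, where 41.9% did. These shares are close to the background in both lines. Both sets held PMS1, which fell. The others were MSH6 (lower) and MSH3 (higher) in 22RV1 and MLH3 and EXO1 (both higher) in DU145. Median log2 effects were -0.00018 over the members and -0.0050 over all genes in 22RV1, and 0.0075 and -0.046 in DU145. With the DESeq2 Wald test 1 of the 6 passed in DU145, EXO1.

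Pair by pair, 3 of the 24 combinations of member and pair were past 1.5-fold with H2O2, a description with no test. They were MSH6 in 22RV1 Vector (0.633-fold) and in 22RV1 PAGE4 (0.588-fold), and PMS1 in 22RV1 Vector (0.594-fold). By pair, 37.5% of all genes with enough counts were past 1.5-fold in 22RV1 Vector, 30.4% in 22RV1 PAGE4, 40.7% in DU145 Vector and 41.5% in DU145 PAGE4. The counting interval of PMS1 was below 0 in all 4 pairs. That of MSH6 was below 0 in 3 pairs, of which 1 was DU145 PAGE4 (log2 -0.08, 95% Clopper-Pearson interval -0.14 to -0.01). That of EXO1 was above 0 in 3 pairs and below 0 in 22RV1 PAGE4 (log2 -0.12, 95% Clopper-Pearson interval -0.21 to -0.02). These intervals cover counting error only.

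**Figure D3:**
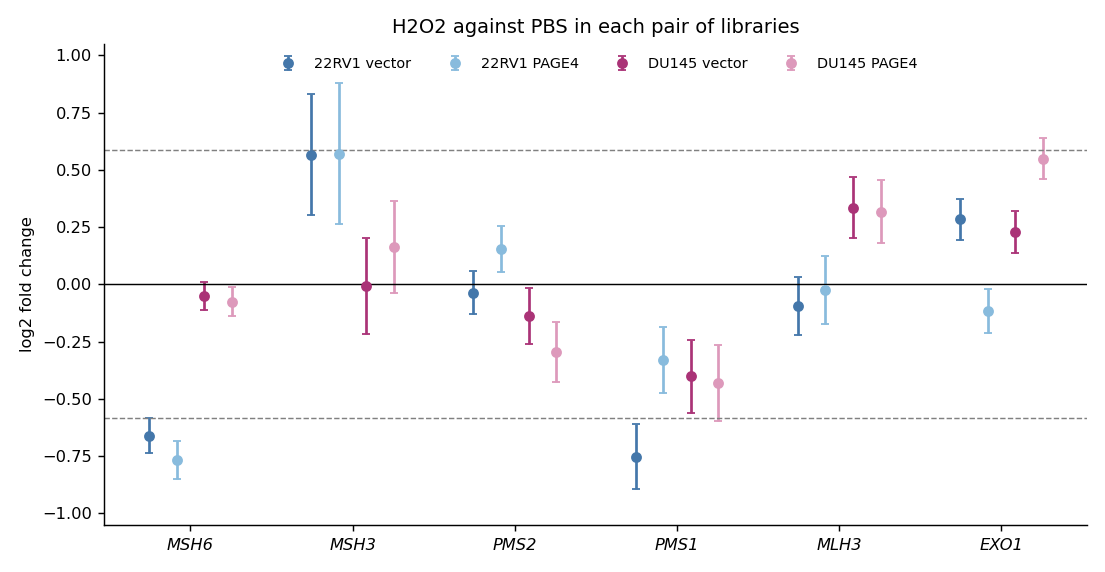
The vertical axis is the log2 fold change of H2O2 against PBS for each gene in each of the 4 pairs of libraries; bars are 95% Clopper-Pearson intervals of the counts, and dashed lines mark 1.5-fold. MSH6 lies past the lower line in both 22RV1 pairs (-0.66 and -0.77) and near 0 in both DU145 pairs (-0.05 and -0.08), and PMS1 lies below 0 in all 4.

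No member passed for PAGE4 over the 4 pairs by edgeR's quasi-likelihood test, where 0.136% of all genes did. None of the 6 had an unadjusted p under 0.05, against 1587 of the 19784 genes tested, and the DESeq2 Wald test also called 0. The log2 effects were 0.04 ± 0.07 for MSH6, -0.01 ± 0.13 for MSH3, -0.03 ± 0.09 for PMS2, 0.07 ± 0.12 for PMS1, -0.09 ± 0.08 for MLH3 and 0.09 ± 0.09 for EXO1 (SE, 4 pairs). The sign of MSH3 turned with DESeq2's size factors (0.0042). Past 1.5-fold were 0 of the 24 combinations of member and pair, where 19.8% of all genes were in 22RV1 with PBS, 23.2% in 22RV1 with H2O2, 15.4% in DU145 with PBS and 15.3% in DU145 with H2O2. The largest difference was that of PMS1 in 22RV1 with H2O2 (log2 0.48, 95% Clopper-Pearson interval 0.32 to 0.65). MLH3 was lower with PAGE4 in 4 of 4 pairs, by -0.15 to -0.05, but its counting interval was below 0 in only 1 of them.

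**Figure D4:**
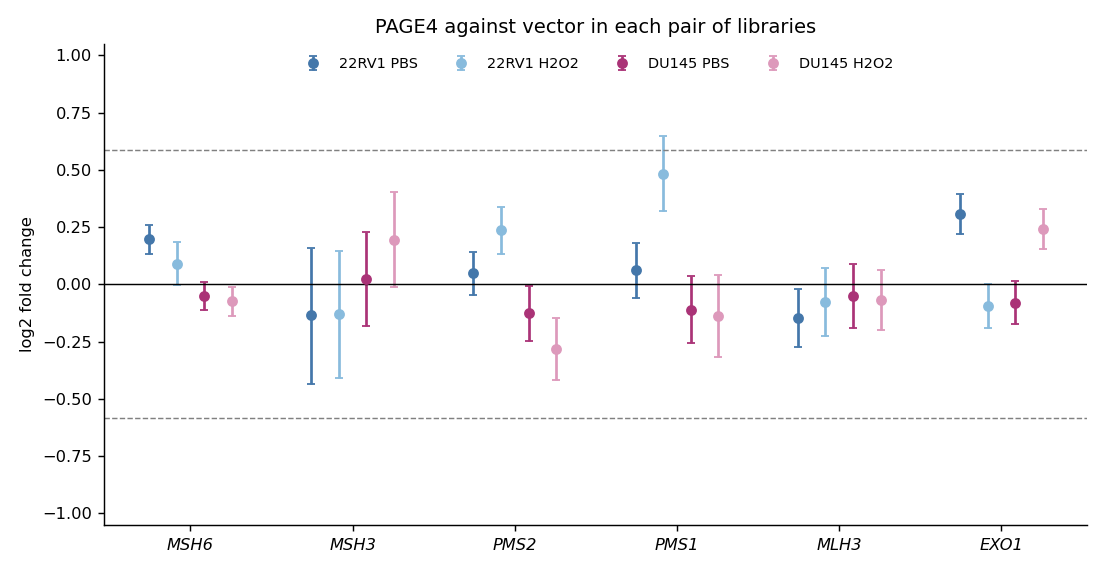
The vertical axis is the log2 fold change of PAGE4 against Vector for each gene in each of the 4 pairs of libraries; bars are 95% Clopper-Pearson intervals of the counts, and dashed lines mark 1.5-fold. All 24 points lie between the dashed lines, from -0.28 to 0.48.

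The PAGE4 effect did not differ between the lines past the threshold for any member either, where 2.49% of all genes passed. By edgeR's quasi-likelihood test 1 of the 6, PMS2, had an unadjusted p under 0.05 (log2 0.34 ± 0.15, 22RV1 minus DU145, adjusted p = 0.307). So did 2760 of the 19784 genes tested, and the DESeq2 Wald test called 0 of the 6. The test of whether the H2O2 effect differed between PAGE4 and Vector cells gave 0 of the 6 members against 0% of all genes. Of all genes, 52 had an unadjusted p under 0.05 by edgeR and 17 by the DESeq2 Wald test, which called 0. The members' differences ran from -0.07 to 0.20 on the log2 scale with SE from 0.26 to 0.39. Each construct's H2O2 effect was taken over both lines here. The spread of this test therefore holds the difference in H2O2 effect between the lines, which passed for 19.5% of all genes. It could call few genes, so 0 calls do not show that the H2O2 effect was the same with and without PAGE4.

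The factors that act after the members were read from a list of 14 genes for PCNA, its loader RFC, the single-strand binding protein RPA, DNA polymerase delta and DNA ligase 1. Over the 4 pairs 6 of the 14 fell with H2O2 and 0 rose, where 23% of all genes passed, with a median log2 effect of -0.24 against -0.04 for all genes. They were POLD1, the catalytic subunit of polymerase delta (-0.81 ± 0.08, edgeR's quasi-likelihood test, adjusted p = 0.00140), LIG1, the ligase (-0.71 ± 0.13), RPA3 (-0.61 ± 0.11), RFC4 (-0.53 ± 0.12), RPA1 (-0.45 ± 0.08) and POLD2 (-0.36 ± 0.08). In 22RV1, where 32.1% of all genes passed, 9 fell and 1 rose (median -0.31 against -0.0050 for all genes). In DU145, where 41.9% passed, 7 fell and 3 rose (median -0.20 against -0.046).

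The effect on 6 of the 14 differed between the lines, against 19.5% of all genes tested. RFC2, RFC3, RFC4 and RFC5, subunits of the clamp loader, were each more negative in 22RV1, by -0.60 to -0.48 on the log2 scale (edgeR's quasi-likelihood test, adjusted p from 0.00253 to 0.0188), the same direction as MSH6 in that contrast. Within the lines they were not all like MSH6. In 22RV1 RFC2, RFC4 and RFC5 fell and RFC3 did not pass. In DU145 RFC3 and RFC5 rose, RFC4 fell and RFC2 did not pass. LIG1 fell further in DU145 (-0.99 ± 0.09) than in 22RV1 (-0.44 ± 0.09). POLD4, the small subunit of polymerase delta, rose in 22RV1 (0.71 ± 0.17, adjusted p = 0.00289) and fell in DU145 (-0.72 ± 0.17, adjusted p = 0.00234). PCNA did not pass in either line (-0.23, adjusted p = 0.0785, and -0.12, adjusted p = 0.357). With PAGE4, 0 of these 14 genes and 0 of the 14 S-phase genes passed, although 0 and 2 of them respectively had an unadjusted p under 0.05.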

How the data were processed

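Counts per gene were deposited by the authors as 1 table for each line. The submitters' processing notes name HISAT2 2.1.0, featureCounts 1.6.0 and GRCh38; strand setting and annotation release are not given in the sources used here. Read counts were analysed as deposited, with TMM scaling over the 8 libraries and a filter on low counts (filterByExpr by line). Main tests were edgeR 4.0.16 quasi-likelihood fits (R 4.3.3) on all 8 libraries with the matched pairs as blocks, Benjamini-Hochberg adjustment over all genes tested and a threshold of 0.05. DESeq2 1.42.0, other scalings, no filter, an additive fit and leaving out each pair were the alternatives. Each SE given with an edgeR effect is the absolute log2 effect divided by the square root of the F statistic of its test. Scripts were tested on simulated data. Folds within pairs used counts divided by TMM library sizes rescaled within the line. A pseudocount of 0.5 was added to these normalized counts. Genes averaging 10 or more normalized counts in a line were used, with a limit of 1.5-fold. Lengths, positions and overlaps came from GENCODE 44. The authors tested single pairs with DESeq2; those results were not used. Named were the 6 members, the neighbour FBXO11, PMS2 near-copies, the pathway and S-phase lists (called genes and extremes), and for each member the 3 genes with the most similar pattern. Members and lists were chosen with earlier results of these data known. Some items of these lists are not reported here. Labels give Trizol extraction and the study's methods a column kit.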

Additional observations from a re-analysis of the deposited data

Results flagged for a closer look

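The H2O2 effect on MSH6 differed between the lines: it was -0.65 on the log2 scale as 22RV1 minus DU145 (adjusted p = 0.000506 by edgeR's quasi-likelihood test of the difference). MSH6 was lower with H2O2 in 2 of 2 pairs of 22RV1 (log2 -0.66 and -0.77) and differed by -0.05 and -0.08 in the pairs of DU145.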

How the results depend on the processing

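Of 402 values for single members under other settings, 353 kept their direction and their side of the threshold, 28 changed sign, 18 lost a call and 3 gained one. No value that passed changed sign. Apart from fits that left out a pair, the changes of sign were PMS2 with H2O2 over the 4 pairs (0.013), PMS1 between the lines (0.12) and MLH3 with H2O2 in 22RV1 (0.060), each with total counts, and MSH3 with PAGE4 with DESeq2's size factors (0.0042) and the DESeq2 Wald test (0.0057). Over the H2O2 pairs, members called numbered 0 with total counts and 2 without the count filter, and in DU145 1 with the DESeq2 Wald test. Genes called for PAGE4 numbered 483 without the filter, 89 with the DESeq2 Wald test and 3 in an additive fit. For PAGE4 differing between the lines they numbered 806 without the filter, and for H2O2 differing with PAGE4, 1. Past the fold limit in H2O2 pairs were 5 combinations of member and pair with total counts and 0 at over 2-fold. Combinations of gene and pair numbered 16785 with a mean of at least 50, 76210 with no minimum and 13324 at over 2-fold for H2O2, and 4260, 60383 and 6313 for PAGE4.

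Leaving out 1 pair at a time, with H2O2 over the pairs 0 to 0 members and 1931 to 3902 genes were called. For H2O2 differing between the lines these were 1 to 2 members and 2041 to 4223 genes, in 22RV1 1 to 3 members and 3699 to 6045 genes, and in DU145 0 to 3 members and 5169 to 9185 genes. Genes called ran from 9 to 40 for PAGE4, from 192 to 1210 for PAGE4 differing between the lines and from 0 to 1 for H2O2 differing with PAGE4. Log2 values that changed sign spanned, for PAGE4, -0.0010 to 0.080 (MSH6), -0.078 to 0.044 (MSH3), -0.11 to 0.054 (PMS2) and -0.050 to 0.14 (PMS1). Between the lines PMS1 spanned -0.16 to 0.042, its H2O2 effect differing between them -0.40 to 0.031, and the PAGE4 effect on EXO1 differing between them -0.17 to 0.23. For H2O2 differing with PAGE4 they spanned -0.41 to 0.31 (MSH6), -0.20 to 0.34 (MSH3), -0.18 to 0.24 (PMS2), -0.0056 to 0.37 (PMS1), -0.22 to 0.24 (MLH3) and -0.37 to 0.32 (EXO1). With H2O2 in 22RV1 they spanned -0.053 to 0.14 (PMS2) and -0.13 to 0.27 (EXO1), and in DU145 -0.0083 to 0.16 (MSH3). Fewer pairs raise the error; other causes were not tested. Total counts moved the median H2O2 effect of all genes in 22RV1 from -0.0050 to 0.11. No paired analysis by replicate number was possible because the labels give none. The fall of MSH6 in 22RV1 passed under all 8 other settings, with adjusted p up to 1.4e-05. MSH3, at 173 to 416 counts, had the widest counting intervals of the members.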

Other observations

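A list of 7 accessory genes held a pair of meiotic MutS homologues that moved in opposite directions with H2O2. Over the 4 pairs 3 of the 7 fell and 1 rose, where 23% of all genes passed. MSH5 was at 21.0 and 16.8 CPM with PBS and 6.07 and 9.76 CPM with H2O2 in 22RV1 (Vector and PAGE4), and at 14.4 and 15.6 CPM with PBS and 6.35 and 6.22 CPM with H2O2 in DU145. It fell 2.41-fold over the 4 pairs (log2 -1.27 ± 0.19, edgeR's quasi-likelihood test, adjusted p = 0.00504). It shares 2788 exonic bases with the read-through gene MSH5-SAPCD1 on the same strand, so its counts are uncertain. MSH4, which forms a dimer with the MSH5 protein in meiosis, was rare, with 24 to 29 counts in the PBS libraries and 45 to 110 counts in the H2O2 libraries, and rose 2.84-fold (log2 1.51 ± 0.33, adjusted p = 0.0176). The helicase gene MCM8 (-0.54 ± 0.08) and HMGB1 (-0.53 ± 0.09) also fell over the 4 pairs. SETD2, the histone H3K36 methyltransferase whose mark recruits the MSH6 protein, rose in DU145 (0.45 ± 0.08, adjusted p = 0.000160) and differed by 0.02 ± 0.08 in 22RV1, and that difference passed (-0.43 ± 0.12, adjusted p = 0.0117). With PAGE4, 0 of the 7 passed, where 0.136% of all genes did.

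Among the members, log2 CPM centred within each line over the 8 libraries correlated at r = -0.98 between MSH6 and MSH3 and at r = 0.79 between MSH6 and PMS1. Most of the spread of MSH6 lay between the PBS and H2O2 libraries of 22RV1 (SD 22.5 CPM in 22RV1 and 5.52 CPM in DU145). Its correlations therefore largely restate the H2O2 effects given above. The genes whose centred pattern was most like that of a member, of 12340 compared over the 8 libraries, were AHNAK, CDCA7 and FZD1 for MSH6 (r from 0.991 to 0.995), DSC2, DUSP4 and RRM2B for MSH3 (0.986 to 0.992), ST5, TCTN3 and BSN for PMS2 (0.960 to 0.995), TMOD2, HAUS4 and TUBGCP5 for PMS1 (0.993 to 0.995), SMPD4, CTDSPL2 and PDCD5 for MLH3 (0.990 to 0.994) and C3orf33, EIF4E2 and UBP1 for EXO1 (0.974 to 0.989). These points share libraries and scaling, and the genes were the highest of many.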
